A study of Mus musculus with 11 samples.

Results

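The Nr4a genes Nr4a1, Nr4a2 and Nr4a3 encode the Nur77, Nurr1 and NOR1 receptors, a small family of nuclear receptors. They were taken by gene symbol from the series table, and all 3 were found among 46202 gene rows and kept among the 27721 rows tested. Both Nr4a1 and Nr4a2 rose in the hippocampus after intranasal insulin: Nr4a1 at 15 min and 1 h, Nr4a2 at 1 h. Nr4a3 had the largest mean difference at 15 min but varied too much between libraries to pass the test. By 6 h the intervals of all 3 members included no change from saline.

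Nr4a receptors are orphan receptors: their ligand pocket is filled by their own side chains, so their activity is set mainly by how much protein is made. They are immediate early genes, transcribed within minutes of calcium, cyclic AMP or growth factor signals, in large part through the factor CREB at cyclic AMP response elements. In neurons they are induced by synaptic activity and learning, and in mice their function in the hippocampus is needed for long-term memory. In liver and muscle of rodents they are known as regulators of glucose and lipid handling.

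RNA of the hippocampus was measured in 11 libraries from single-housed male C3-C57B1/6J mice of 2 to 3 months. The groups were saline with the time label 0 min (n = 3) and intranasal insulin at 2.4 IU per nare. The insulin libraries were from 15 min (n = 2), 1 h (n = 3) and 6 h (n = 3) after it. Those of 15 min are replicates 1 and 3, and none of the 11 samples is a replicate 2 of that time. Isoflurane anaesthesia preceded removal of the brain in every group. The saline libraries are called untreated in their treatment label and saline-treated in their titles. Each time was compared with the same saline libraries, and since no label ties a library to 1 animal, the p-values cover the spread from library to library, which may be technical. Values are the authors' quantile-normalized log2 signals, and depth is unknown. The whole hippocampus was used, so more cells with a transcript and more transcript per cell cannot be told apart. The hippocampal marker lists were all detected (8 of 8 dentate granule and 10 of 10 pyramidal neuron genes). The 18S ribosomal RNA row (Rn18s-rs5) was at 9.67 and 10.49 at 15 min and between 10.18 and 10.51 at 1 h. It lay between 11.04 and 12.19 at 6 h and between 13.05 and 16.00 with saline. Its Pearson correlations with Nr4a1, Nr4a2 and Nr4a3 over the 11 libraries were -0.75, -0.73 and -0.57. With group means removed they were 0.35, -0.18 and -0.16. The part of this row in the results was not tested. Library numbers form blocks by group, but not in time order: saline comes first, then 6 h, then 15 min and last 1 h. The 6 h libraries are thus numbered next to saline, and those of 15 min and 1 h furthest from it. Shifts tied to the numbering are therefore not separable from those of insulin, both in the early differences and in their absence at 6 h. No saline library is labelled 15 min, 1 h or 6 h. Effects of handling or of time since dosing therefore cannot be told apart from those of insulin either.

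In the GRCm38 annotation (GENCODE M21), Nr4a1 (ENSMUSG00000023034) lies on the plus strand of chromosome 15 at 101254269 to 101274795. Nr4a2 (ENSMUSG00000026826) lies on the minus strand of chromosome 2 at 57106830 to 57124003, and Nr4a3 (ENSMUSG00000028341) on the plus strand of chromosome 4 at 48045153 to 48086447. No other annotated gene overlaps these spans. The sequence before each start is shown because all 3 windows hold several copies of the short core of the cyclic AMP response element, the site that CREB binds. The 250 bases before the start, from RefSeq (GRCm38.p6), are chr15:101266596-101266845 for Nr4a1, chr2:57124004-57124253 for Nr4a2 and chr4:48045055-48045304 for Nr4a3. They are written 5′ to 3′ on the gene's strand, with the core TGACG or its reverse complement CGTCA in capitals. The Nr4a1 window is the start of the shorter annotated transcripts and lies in an intron of the longest. The RefSeq record of Nr4a3 begins at 48045078 and its GENCODE span at 48045153, both inside the window, which precedes the start of another transcript. For that gene only the first 50 bases, chr4:48045055-48045104, are printed, which hold 3 of its matches and enter the RefSeq record.
Nr4a1: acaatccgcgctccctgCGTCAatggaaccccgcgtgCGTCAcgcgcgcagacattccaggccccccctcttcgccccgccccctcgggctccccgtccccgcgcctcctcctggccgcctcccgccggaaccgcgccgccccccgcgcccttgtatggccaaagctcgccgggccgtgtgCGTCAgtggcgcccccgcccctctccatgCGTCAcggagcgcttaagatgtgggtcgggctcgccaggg
Nr4a2: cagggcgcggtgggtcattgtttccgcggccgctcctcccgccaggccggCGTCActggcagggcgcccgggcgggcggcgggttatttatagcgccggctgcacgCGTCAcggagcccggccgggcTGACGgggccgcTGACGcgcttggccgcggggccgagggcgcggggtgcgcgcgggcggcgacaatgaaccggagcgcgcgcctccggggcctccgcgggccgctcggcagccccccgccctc
Nr4a3: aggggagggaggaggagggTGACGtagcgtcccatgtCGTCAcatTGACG

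Each of the 3 windows held 4 matches to the core, counted on both strands, with none overlapping. The matches began 233, 213, 69 and 40 bases before the start in Nr4a1, and 200, 144, 123 and 111 bases before it in Nr4a2. In Nr4a3 they began 231, 213, 205 and 147 bases before the start, the last of them beyond the printed stretch. The matches at 213, 205 and 147 lie inside the RefSeq record of Nr4a3, and the one at 147 also inside its GENCODE span. Of 32851 RefSeq promoter windows of this length, 17.8% held at least 1 match and 0.137% held 4 or more. The windows of the 3 members are rich in G and C (74.4%, 80.0% and 63.6%, against a median of 52.4% over all windows), and among the 6582 windows with at least 63.6% the share with 4 or more was 0.38%. The full CREB element TGACGTCA, present in 1.55% of windows, was in none of the 3. The same was true of AAAGGTCA, the element that Nr4a receptors bind (1.34%, both strands), of the CArG box of serum response factor (1.47%) and of the MEF2 site (0.508%). A match is a run of letters in this window and does not show that a factor binds there.

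Nr4a1 had log2 signals of -1.05, -1.33 and -1.10 with saline (replicates 1, 2 and 3). At 15 min it stood at -0.45 and -0.44, at 1 h at -0.46, -0.65 and -0.47, and at 6 h at -1.13, -0.96 and -0.99. All 5 libraries of 15 min and 1 h lay above all saline libraries, by at least 0.40, and the 6 h libraries overlapped the saline range. The order of mean levels was 15 min (-0.44 ± 0.01), 1 h (-0.52 ± 0.11), 6 h (-1.03 ± 0.09) and saline (-1.16 ± 0.15, SD). No neighbours in this order differed past the limma threshold given with the comparisons.

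Nr4a2, which in mice is required for midbrain dopamine neurons and is expressed in adult cortex and hippocampus, had log2 signals of -1.52, -1.46 and -1.35 with saline. Its signals were -0.79 and -0.38 at 15 min, -0.49, -0.12 and -0.48 at 1 h, and -1.64, -1.48 and -1.03 at 6 h. Again the 5 libraries of 15 min and 1 h lay above every saline library, and the 6 h libraries fell on both sides of the saline values. The order of mean levels was 1 h (-0.37 ± 0.21), 15 min (-0.59 ± 0.29), 6 h (-1.39 ± 0.32) and saline (-1.44 ± 0.09). Neighbours in this order did not differ past the limma threshold. Among the saline groups of the 3 members, that of Nr4a2 had the smallest SD.

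Nr4a3 had log2 signals of -2.84, -2.83 and -1.61 with saline, -1.78 and -0.47 at 15 min, -1.70, -2.04 and -0.89 at 1 h, and -2.78, -2.49 and -2.08 at 6 h. In all 4 groups replicate 3 was the highest library, and the saline replicate 3 stood above 15 min replicate 1 and above 1 h replicates 1 and 2. The group means were -2.42 ± 0.71 with saline, -1.12 ± 0.93 at 15 min, -1.55 ± 0.59 at 1 h and -2.45 ± 0.35 at 6 h. From high to low the order was thus 15 min, 1 h, saline and 6 h, and no neighbours differed past the limma threshold. Nr4a2 was highest in replicate 3 in all groups but 1 h, where replicate 2 was, and lowest in replicate 1 in all 4. The highest Nr4a1 library was replicate 1, 3, 1 and 2 in saline, 15 min, 1 h and 6 h.

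**Figure D1:**
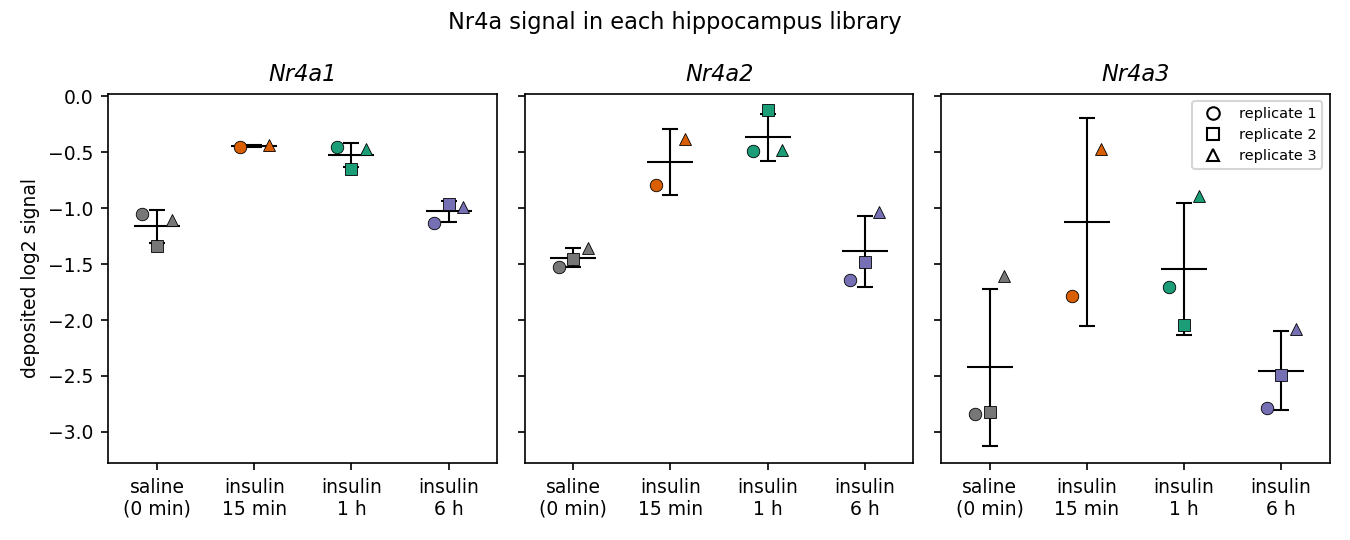
Deposited log2 signal of Nr4a1, Nr4a2 and Nr4a3 in each of 11 libraries, by group in time order. Symbols mark the replicate number, and bars show the mean ± SD. Nr4a1 and Nr4a2 at 15 min and 1 h sit above all saline libraries, whereas Nr4a3 is highest in replicate 3 of every group.

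The first comparison asked which members differed 15 min after insulin. A limma model fitted over all rows gave moderated two-sided tests, with Benjamini-Hochberg adjustment at 0.05 over 27653 rows. Nr4a1 rose 1.65-fold at 15 min (log2 change 0.72, SE 0.12, 95% interval 0.46 to 0.98; adjusted p = 0.047). Nr4a2 was 1.81-fold higher in mean (log2 change 0.86, SE 0.20, interval 0.42 to 1.30) with an adjusted p of 0.12. Nr4a3 was 2.46-fold higher in mean (log2 change 1.30, SE 0.49, interval 0.20 to 2.40) with an adjusted p of 0.26. Thus 1 of 3 members rose, where 0.0434% of all rows tested did (12 of 27653) and 0.239% changed in either direction.

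In Nr4a1 and Nr4a2 both 15 min libraries lay above every saline library, a separation that 6.96% of rows with all values showed. The median log2 change of all rows was -0.14 at 15 min, and relative to it the members lay 0.86, 0.99 and 1.44 higher. The call of Nr4a1 was lost in 10 of the 11 fits that left out 1 library, with adjusted p from 0.060 to 0.25, and held only without 6 h replicate 2 (0.045). It was also lost without the filter on low rows (0.052), without the variance trend (0.053) and with only the 2 groups compared (0.16). The Nr4a3 difference was 0.64 without 15 min replicate 3 and 1.96 without 15 min replicate 1.

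The second comparison asked the same 1 h after insulin. Nr4a2 rose 2.11-fold (log2 change 1.08, SE 0.18, interval 0.69 to 1.47; limma adjusted p = 0.025). Nr4a1 rose 1.56-fold (log2 change 0.64, SE 0.10, interval 0.41 to 0.87; limma adjusted p = 0.024). Nr4a3 was 1.84-fold higher in mean (log2 change 0.88, SE 0.44, interval -0.11 to 1.86; limma adjusted p = 0.38). So 2 of 3 members rose, where 0.13% of rows tested did (36 of 27706) and 0.877% changed in either direction.

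Every 1 h library lay above every saline library for Nr4a1 and Nr4a2, as in 6.27% of rows with all values. For Nr4a3 only 1 of 3 did, and its log2 change was 0.55 without 1 h replicate 3 and 1.28 without saline replicate 3. Relative to the median of all rows (-0.11) the log2 changes of Nr4a1, Nr4a2 and Nr4a3 were 0.74, 1.18 and 0.98. The Nr4a2 call was lost without saline replicates 1, 2 or 3 (adjusted p = 0.12, 0.084 and 0.093) and without 1 h replicates 1 or 2 (0.084 and 0.099). That of Nr4a1 was lost without saline replicates 1, 2 or 3 (0.071, 0.078 and 0.087) and without 1 h replicates 1, 2 or 3 (0.11, 0.059 and 0.065). A fit of the saline and 1 h libraries alone gave Nr4a1 an adjusted p of 0.058.

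At 6 h no member passed, and no row of 27707 did (0%) by limma, although 1934 had an unadjusted p under 0.05. In no member did all 6 h libraries lie above all saline libraries, as they did in 4.31% of rows with all values. The log2 changes were 0.14 for Nr4a1 (SE 0.10, interval -0.09 to 0.37), 0.06 for Nr4a2 (SE 0.18, interval -0.33 to 0.45) and -0.03 for Nr4a3 (SE 0.44, interval -1.01 to 0.95). Their limma adjusted p were 0.75, 0.94 and 0.99. The intervals still allow Nr4a1 to be up to 1.29-fold, Nr4a2 up to 1.37-fold and Nr4a3 up to 1.94-fold higher than with saline. The sign of the Nr4a3 difference turned positive after cyclic loess (0.0093), with array weights (0.28), without 6 h replicate 1 (0.13) and without saline replicate 3 (0.38).

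**Figure D2:**
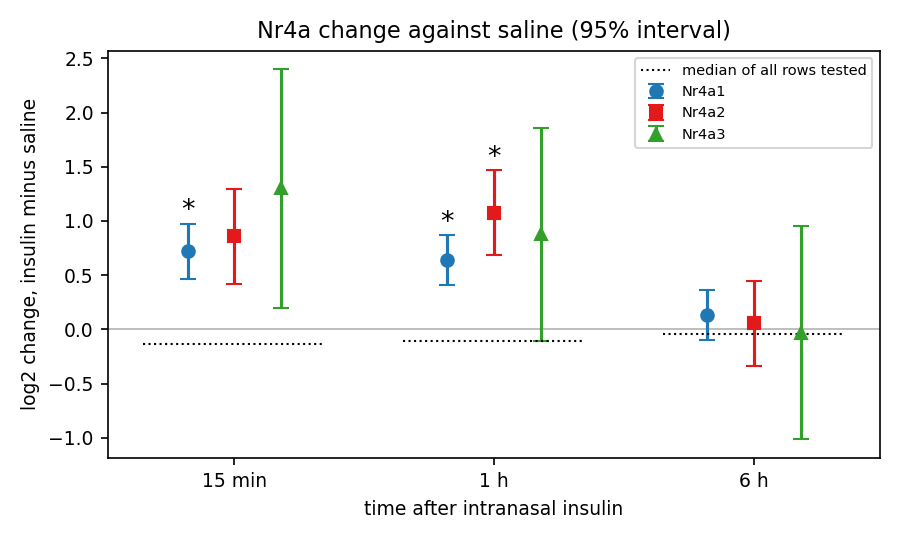
Log2 change of each member against saline at 15 min, 1 h and 6 h, with 95% limma intervals. Stars mark adjusted p under 0.05, and dotted lines show the median change of all rows tested. The intervals of Nr4a1 and Nr4a2 lie above 0 at 15 min and 1 h, and those of all 3 members include 0 at 6 h.

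The course between the insulin times was tested directly. From 15 min to 1 h no row of 27645 was called (0%), with 966 at an unadjusted p under 0.05. The members' changes in that step, 1 h minus 15 min, were -0.08 (SE 0.12) for Nr4a1, 0.22 (SE 0.20) for Nr4a2 and -0.42 (SE 0.49) for Nr4a3. From 1 h to 6 h Nr4a1 had a log2 change, 6 h minus 1 h, of -0.50 (SE 0.10), Nr4a2 of -1.02 (SE 0.18) and Nr4a3 of -0.91 (SE 0.44). None was past the threshold (limma adjusted p = 0.18, 0.14 and 0.49), where 0.0108% of all rows were called (3 of 27701; 0.00361% higher and 0.00722% lower at 6 h).

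All 6 h libraries lay below all 1 h libraries in each of the 3 members, a separation found in 3.17% of rows with all values. Nr4a3 separated only narrowly, by 0.04. The 6 h libraries also lay below all 15 min libraries in all 3 members, as in 7.08% of rows. The log2 changes, 6 h minus 15 min, were -0.58 (SE 0.12) for Nr4a1, -0.80 (SE 0.20) for Nr4a2 and -1.33 (SE 0.49) for Nr4a3, with limma adjusted p of 0.16, 0.20 and 0.28, where 0.00723% of rows were called. Without 15 min replicate 3 the Nr4a3 value was -0.67, and without 1 h replicate 3 its change from 1 h to 6 h was -0.58. The difference between the early and the 6 h response therefore did not pass the test over all rows in any member.

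With the 3 insulin times averaged, Nr4a1 lay 0.50 above saline in log2 (SE 0.09, limma adjusted p = 0.043; 7 of 8 insulin libraries above every saline library). Nr4a2 lay 0.66 above (SE 0.15, adjusted p = 0.094 by limma) and Nr4a3 0.72 above (SE 0.37, adjusted p = 0.40 by limma), where 0.0905% of 27634 rows were called higher. A moderated F test of the 3 comparisons with saline called 0.365% of rows. It gave limma adjusted p of 0.044 for Nr4a1, 0.053 for Nr4a2 and 0.34 for Nr4a3. The averaged Nr4a1 call was lost in 10 of 11 fits that left out 1 library (adjusted p from 0.052 to 0.16) and held only without 6 h replicate 2 (0.048).

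Whether the members moved by different amounts was tested on the difference of log2 signal between members within each library, insulin (n = 8) against saline (n = 3). Nr4a1 minus Nr4a2 averaged 0.11 ± 0.35 with insulin and 0.28 ± 0.17 with saline (SD). Nr4a1 minus Nr4a3 averaged 1.09 ± 0.57 with insulin and 1.26 ± 0.67 with saline. Nr4a2 minus Nr4a3 averaged 0.98 ± 0.55 with insulin and 0.98 ± 0.63 with saline. The exact two-sided permutation p were 0.47, 0.70 and 0.97 for the 3 pairs, each 0.97 after adjustment over the pairs, and the smallest p this design allows is 0.012. No difference between members in their change was detectable with the 3 insulin times pooled. Pooling can hide a difference at a single time: Nr4a1 minus Nr4a2 averaged 0.14 at 15 min, -0.16 at 1 h and 0.36 at 6 h.

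By time, Nr4a1 minus Nr4a2 was lowest at 1 h, at 0.04, -0.53 and 0.02 in replicates 1, 2 and 3, against 0.47, 0.12 and 0.25 with saline. All 1 h libraries thus lay below all saline libraries in this difference, which with 3 libraries a group cannot reach an exact p of 0.05. How often other pairs of genes separate in this way was not computed. The values at 15 min (0.35 and -0.06) spread over the saline range and below it. Nr4a1 minus Nr4a3 in replicate 3 was 0.51 with saline, 0.03 at 15 min, 0.43 at 1 h and 1.10 at 6 h, the lowest value of each group.

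**Figure D3:**
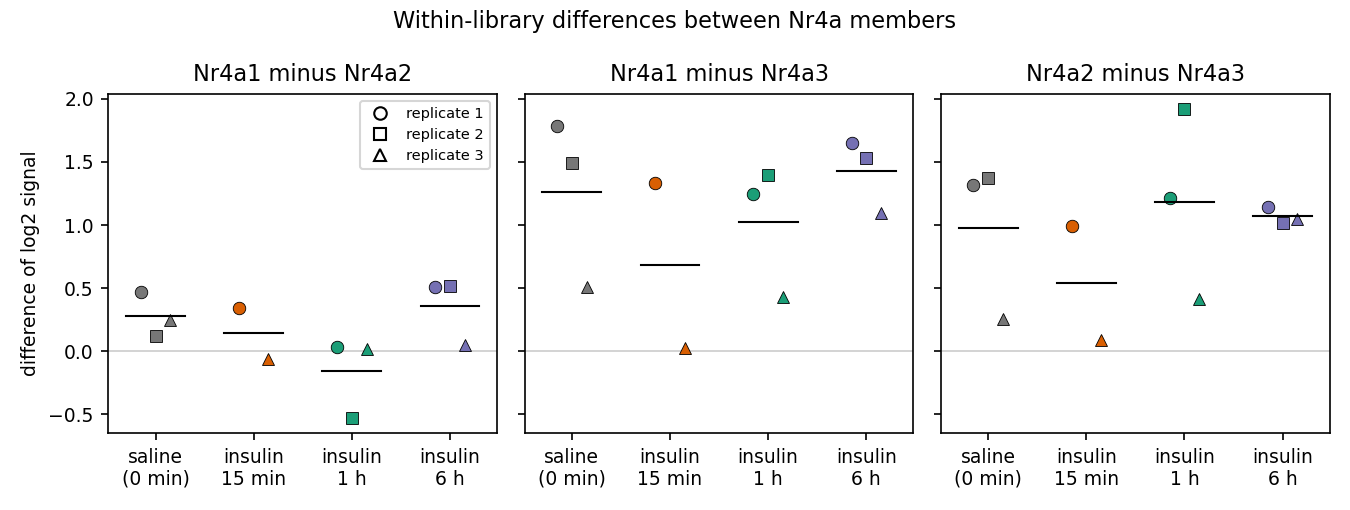
Difference of log2 signal between 2 members within each library, by group in time order, with lines at the group means. Nr4a1 minus Nr4a2 at 1 h is below every saline library, while replicate 3 (triangles) is the lowest of each group in Nr4a1 minus Nr4a3.

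The other members of the nuclear receptor superfamily were set beside the Nr4a genes. Of 45 other receptor genes, 41 were tested. None of them rose at any time, and only Rora, a receptor of the clock and of cerebellar development, fell, at 1 h (log2 change -0.60, SE 0.10, limma adjusted p = 0.032). Among the 44 receptors tested, Nr4a3, Nr4a2 and Nr4a1 ranked 1, 3 and 4 by log2 change at 15 min, with Nr0b2, a repressor receptor without a DNA-binding domain, between them (log2 change 0.88, SE 0.50, adjusted p = 0.44 by limma).

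At 1 h Nr4a2 and Nr4a3 led the 44 receptors and Nr4a1 was the fifth by log2 change. By p, Nr4a1 and Nr4a2 were the leading receptors at both times. At 6 h the members ranked 16, 23 and 28 among the 44. The median log2 change of the 41 other receptors was -0.04, -0.03 and 0.06 at 15 min, 1 h and 6 h, against -0.14, -0.11 and -0.04 over all rows. Of the other receptors Rora had the smallest p at all 3 times, with log2 changes of -0.50 at 15 min and -0.40 at 6 h (limma adjusted p = 0.12 and 0.60). Next were Hnf4g at 15 min (log2 change -1.02, adjusted p = 0.19), Rorb at 1 h (-0.36, 0.10) and Nr3c2, the mineralocorticoid receptor, at 6 h (-0.56, 0.70), none past the limma threshold.

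**Figure D4:**
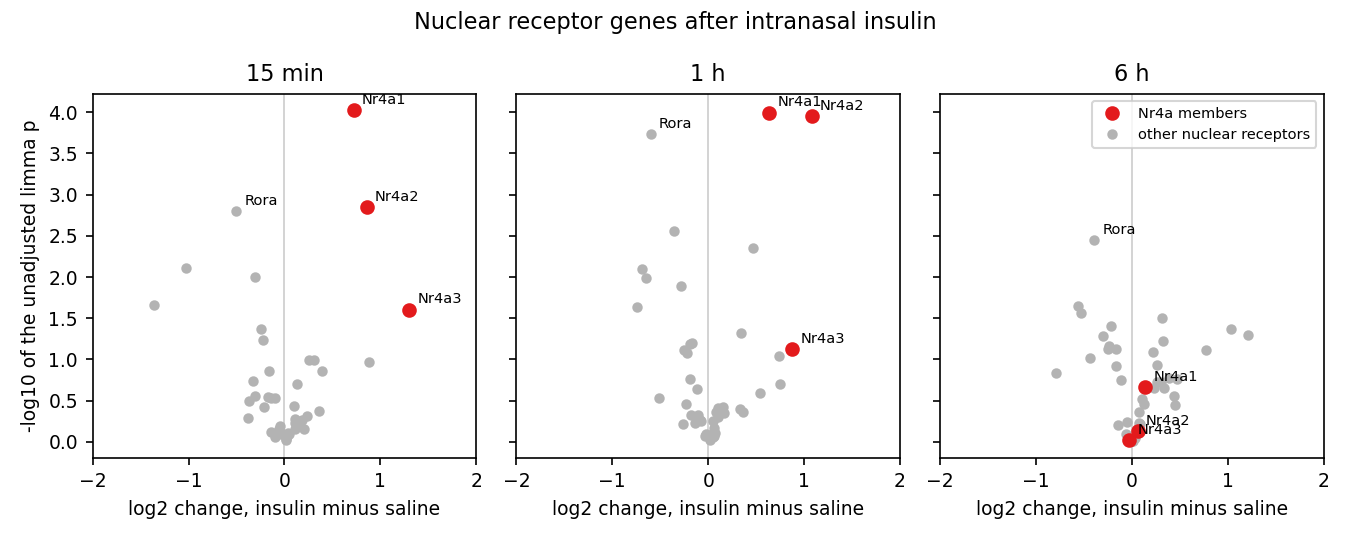
Log2 change against saline (x axis) and -log10 of the unadjusted limma p (y axis) for 44 nuclear receptor genes at 15 min, 1 h and 6 h. Nr4a1 and Nr4a2 stand at the top right at 15 min and 1 h, and at 6 h the members are among the other receptors.

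Genes that act upstream of the Nr4a family were measured at 25 of 25: CREB and its coactivators, MEF2 and serum response factors, and their kinases and deacetylases. None passed at any time, and the median log2 change was 0.09, -0.0016 and 0.02 at the 3 times in order, against -0.14, -0.11 and -0.04 over all rows. Those with the smallest p were Sik1, a CREB-induced kinase that restrains the CREB coactivators, at 0.72 at 15 min and 0.68 at 1 h (limma adjusted p = 0.14 and 0.091). Srf, which drives immediate early genes, stood at 0.28 at both times (adjusted p = 0.30 and 0.23 by limma). At 6 h they were Crtc2, a CREB coactivator (0.30), and Sik1 (0.32), each with a limma adjusted p of 0.72.

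Of 20 partners and coregulators, among them the RXR receptors that pair with Nr4a1 and Nr4a2, none passed at any time. The deacetylase Hdac3, a partner of nuclear receptor corepressors, had log2 changes of -0.32 at 15 min and -0.21 at 1 h (limma adjusted p = 0.14 and 0.19). Rxrb had one of -0.31 at 15 min (adjusted p = 0.20 by limma). Rxra had log2 changes of 0.47 at 1 h and 0.32 at 6 h (adjusted p = 0.12 and 0.70 by limma), and Bcl2, whose protein Nr4a1 binds at mitochondria, one of -0.27 at 6 h (0.71). The list's medians were -0.02, -0.07 and -0.03 at 15 min, 1 h and 6 h, against -0.14, -0.11 and -0.04 over all rows.

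Genes reported as Nr4a targets were taken in 3 lists. Of 14 tested targets in metabolism, 1 rose at 15 min and at 1 h: Pdk4, which restrains pyruvate dehydrogenase, with log2 changes of 1.27 and 1.18 (limma adjusted p = 0.020 and 0.0087). Ucp2 was next by p at 1 h (0.57) and first at 6 h (0.70), and the glucose transporter gene Slc2a4 next at 15 min (-0.68), none past the threshold (limma adjusted p = 0.19, 0.60 and 0.21). The medians of this list were -0.29, -0.09 and 0.07 at the 3 times in order. Cd36 was second by p at 6 h (0.52, limma adjusted p = 0.73).

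None of 12 chaperones of the endoplasmic reticulum, reported as Nr4a targets in memory, passed at any time. Their median was 0.09, 0.23 and -0.0014 at the 3 times in order, against -0.14, -0.11 and -0.04 over all rows, with 10 of 12 above 0 at 1 h. Creld2 (0.60) and Sdf2l1 (0.57) were closest to the threshold at 1 h (limma adjusted p = 0.072 and 0.098). At 15 min Pdia3 and Pdia6 were both at 0.22 (0.32 and 0.42 by limma), and at 6 h Pdia4 and Calr both at -0.21 (0.72 and 0.74).

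None of 12 targets in dopamine neurons and memory passed either. Their medians were -0.42, -0.11 and -0.32 at 15 min, 1 h and 6 h. Fosl2, a member of the AP-1 family, had the smallest p at 15 min and 1 h, at 1.58 and 1.56 (limma adjusted p = 0.14 and 0.079). Second by p were the dopamine receptor gene Drd2 at 15 min (-0.48) and Pmch, a peptide hormone gene of the hypothalamus, at 1 h (1.41), with limma adjusted p of 0.38 and 0.62. The dopamine transporter genes Slc6a3 and Slc18a2 stood at -2.22 and -0.67 at 6 h (0.70 and 0.71 by limma).

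Activity-induced genes were 25, all tested, of which Sik1 and Fosl2 also stand in lists above. Fos and Fosb, the AP-1 subunits that mark recent neuronal activity, rose at 15 min (log2 changes 1.64 and 1.80; limma adjusted p = 0.0034 and 0.030) and at 1 h (1.36 and 1.76; 0.0021 and 0.0096). None of the others passed, and none passed at 6 h, where Fosb (0.82) and Egr4 (1.57) had the smallest p (limma adjusted p = 0.60 and 0.70). The median of the list was 0.63, 0.22 and 0.13 at the 3 times in order, against -0.14, -0.11 and -0.04 over all rows.

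The members were also set beside these genes library by library. After group means were removed, Nr4a3 correlated above 0.7 with 8 of the 25 genes over the 11 libraries: Fosl2 (0.94), Homer1 (0.92), Ptgs2 (0.90), Egr3 (0.89), Egr4 (0.88), Junb (0.88), Arc (0.85) and Egr2 (0.75). Other genes of the list ran the opposite way to Nr4a3, among them Nptx2 (-0.79), Ier2 (-0.78), Dusp6 (-0.62), Dusp1 (-0.52) and Fos (-0.45). Nr4a1 and Nr4a2 correlated above 0.7 with 0 of 25, and Nr4a2 had -0.75 with Ier2. The median within-group correlation with the list was 0.39 for Nr4a3, 0.27 for Nr4a1 and 0.26 for Nr4a2. These are descriptions over libraries that share groups and normalization, and no test was made of them. Between members the within-group correlations were 0.44 for Nr4a1 with Nr4a3, 0.41 for Nr4a2 with Nr4a3 and -0.05 for Nr4a1 with Nr4a2.

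**Figure D5:**
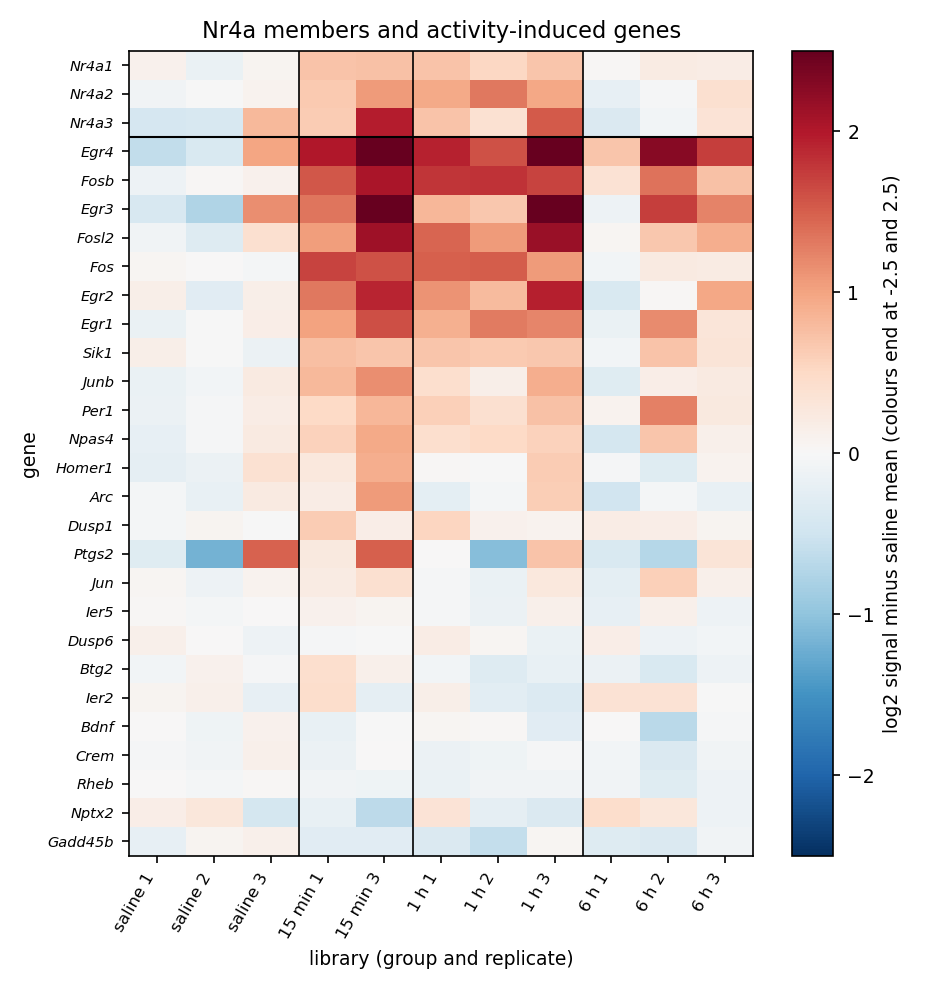
Log2 signal minus the saline mean in each library for Nr4a1, Nr4a2 and Nr4a3 (top 3 rows) and 25 activity-induced genes, ordered by their mean over the 15 min and 1 h libraries. Colour runs from -2.5 to 2.5. The Nr4a3 row is darkest at 15 min replicate 3 and 1 h replicate 3, as are those of Egr3, Egr4 and Fosl2.

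The rows most like each member over the 11 libraries were ranked by Pearson correlation of log2 signal among 16566 named rows with no missing value. For Nr4a1 they were Klf4 (0.96), Banp (0.95), Helz2 (0.94), Pdk4 (0.94) and Klf2 (0.94). Klf2 and Klf4 are Krüppel-like factors of the immediate early class. For all of these but Helz2 (0.83) the correlation was between 0.22 and 0.36 once group means were removed, so the likeness lay mainly in the group means. Klf4 and Klf2 rose at 15 min (log2 changes 1.91 and 2.20; limma adjusted p = 0.0034 and 0.0084) and at 1 h (1.94 and 1.79; 0.0013 and 0.0038).

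For Nr4a2 the 5 rows were Fam46a (0.96), Nfya (0.95), Cys1 (0.95), Znfx1 (0.94) and Pdk4 (0.94). Within groups these stood at 0.87, 0.67, 0.73, 0.59 and 0.67. Of them Pdk4 rose at 15 min and 1 h and Znfx1 at 1 h (0.60, limma adjusted p = 0.020), while Nfya, a subunit of a CCAAT-binding factor, was at 0.39 (0.099). Pdk4 was the row shared by the lists of Nr4a1 and Nr4a2.

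For Nr4a3 the rows given here are Ak3l2-ps (0.97), Kctd6 (0.95), Pum2 (0.95) and Spred1 (0.94). Pum2 encodes an RNA-binding repressor and Spred1 an inhibitor of MAP kinase signalling. Their correlations within groups were 0.87 to 0.95, close to those over all libraries, so here the likeness lay in differences between libraries of the same group. None of these 4 passed against saline at any time. Without replicate 3 of every group, an alternative added after these values were seen, the Nr4a3 log2 changes were 1.05 at 15 min (SE 0.25), 0.96 at 1 h (SE 0.20) and 0.19 at 6 h (SE 0.20). No row passed the test in that smaller set, in which 15 min holds 1 library assumed to vary like the others.

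Markers of other cells and regions were set beside these results, given as summed linear signal per library. For all marker lists below, sums lying apart from all saline sums are a description and not a test. How often sums of other gene lists lie apart in this way was not computed. Among single rows with all values, every insulin library lay above every saline library in 6.96%, 6.27% and 4.31% at 15 min, 1 h and 6 h. For 11 neocortex and claustrum markers in the table, regions rich in Nr4a2, the sums lay between 6.19 and 7.11 at 15 min, between 7.49 and 9.76 at 1 h and between 7.15 and 10.001 at 6 h, against 7.28 to 7.88 with saline. The 15 min sums were below all saline sums. At 15 min 7 of these 11 markers had a log2 change above 0, with a median of 0.09 against -0.14 over all rows, and Rprm, the one with the highest level per length, had -0.41. For 9 striatum markers they lay between 16.2 and 19.2 at 15 min, between 9.47 and 27.0 at 1 h and between 10.1 and 17.99 at 6 h, against 9.56 to 12.6 with saline, so that the 15 min sums were above all saline sums. At that time 8 of the 9 had a log2 change above 0, with a median of 0.57. For 6 subiculum markers they were 6.88 to 8.01, 6.48 to 9.17 and 6.30 to 9.18 at 15 min, 1 h and 6 h, against 7.41 to 8.71. No marker of these 3 lists passed the test, and all were above the filter on low rows. Their part in the Nr4a results was not tested.

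Markers of vessels, where Nr4a1 is also expressed, lay lower with insulin. The sum over 8 endothelial markers was 8.70 to 10.8 at 15 min and 9.44 to 10.5 at 1 h, against 11.3 to 17.2 with saline, and at 6 h it overlapped saline (10.9 to 14.0). That over 8 pericyte markers was 8.50 to 9.63 at 15 min and 8.78 to 11.1 at 1 h, against 11.8 to 12.5 with saline, and at 6 h it was still below all saline sums (8.78 to 10.9). These sums weigh genes of high signal most, such as Cldn5 and Vtn (mean log2 signals 3.15 and 3.32 with saline). Of the endothelial genes 1, 2 and 0 of 8 had a log2 change above 0 at 15 min, 1 h and 6 h (medians -0.45, -0.41 and -0.17). Of the pericyte genes 1, 1 and 2 of 8 did (medians -0.42, -0.36 and -0.17). Over all rows the medians were -0.14, -0.11 and -0.04. None of these 16 genes passed. The sum over 10 blood and leukocyte markers spread over the saline range at 15 min (52.0 to 104) and 1 h (65.6 to 108) and lay below it at 6 h (50.4 to 62.6), against 70.1 to 83.6 with saline.

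Of the remaining lists, the sums over 8 dentate granule markers were 8.95 to 11.6 at 15 min and 8.40 to 9.51 at 1 h, against 9.99 to 11.1 with saline, so that all 1 h sums were below all saline sums, as were those at 6 h (8.77 to 9.78). Of the dentate granule genes 5, 1 and 2 of 8 had a log2 change above 0 at 15 min, 1 h and 6 h (medians 0.05, -0.50 and -0.26). The part of the remaining lists in the Nr4a results was not tested. Among 10 pyramidal neuron markers Cpne4 fell at 1 h (log2 change -0.69, limma adjusted p = 0.034). No marker of interneurons (10), astrocytes (10), oligodendrocytes (8) or choroid plexus (8) passed at any time. The choroid plexus sum ran from 28.5 to 135 at 15 min and 3.47 to 89.4 at 1 h, against 40.5 to 62.1 with saline. At 6 h it was below all saline sums (1.38 to 24.2). Of the choroid plexus genes 8, 0 and 0 of 8 had a log2 change above 0 at 15 min, 1 h and 6 h (medians 0.37, -0.90 and -1.95).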

How the data were processed

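Hippocampal RNA from a column kit was made into stranded total RNA libraries and read paired-end, per the labels' protocols. The authors deposited 1 table of log2 signals per gene symbol. Per the submitters' processing notes, bcl2fastq, Partek 6.7 and GRCm38 were used, with no roles given. Aligner, counter and annotation: not given in the sources used here. Every library has the same minimum (-13.64), median (-3.20) and maximum (16.00), as quantile normalization leaves the deposited log2 values. Over 1664 genes with a value in only 1 library, the value fell with log2 gene span at a slope of -0.93. The scale was therefore read as base 2 and per gene length. Length over exons alone was not compared, so whether introns count in that length was not tested. Columns were matched to samples by name. Genes without a value (32037 to 33653 of 46202 had one per library) were treated as missing. No counts or depths are given, so no counting interval is possible.

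Rows in the lowest 40% by mean were left out. A linear model with 4 groups was fitted to all 11 libraries in R 4.3.3 with limma 3.58.1 (empirical Bayes with trend), and p-values were adjusted over all rows tested. Fold changes are 2 raised to the difference of means. The fit was tested on simulated data. Pairs of members were compared by an exact permutation test. Alternatives were no filter, complete rows, cyclic loess, a median shift, an offset of 0.1, pairwise fits, no trend, array weights, the replicate number as a block, and leaving out each library. The members and lists were chosen with earlier results of these data known. From each list, up to 5 genes past the threshold by p are named, or the 2 smallest p. Homer1, Ptgs2, Egr2, Egr3, Junb, Arc, Nptx2, Ier2, Dusp1, Dusp6 and Nr0b2 were named after their values were seen. Ak3l2-ps, named by the rule, is a pseudogene whose reads may come from its parent gene. Proteins were not analysed here. Some items that the naming rule selects are not reported here.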

Additional observations from a re-analysis of the deposited data

How the results depend on the processing

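No difference of a member from saline at 15 min or 1 h changed sign in any of the 9 other fits or the 11 that left out 1 library. The Nr4a2 call at 1 h held in all 9 (adjusted p from 0.0072 to 0.037). The Nr4a1 call at 15 min was lost without the filter (0.72), without the trend (0.72), with only the 2 groups compared (0.72) and with the replicate block (0.68, adjusted p = 0.094), and at 1 h with only the 2 groups compared (0.64, adjusted p = 0.058). The averaged Nr4a1 call was lost without the trend (0.50), with 2 groups only (0.47, adjusted p = 0.31) and with the replicate block (0.49). An exact two-sided permutation test was made of each member, 8 insulin against 3 saline libraries. The unadjusted permutation p were 0.036 for Nr4a1, 0.11 for Nr4a2 and 0.28 for Nr4a3. After adjustment over the 3 members these permutation p were 0.11, 0.16 and 0.28, none past the threshold. The averaged Nr4a2 difference passed with array weights (0.75, adjusted p = 0.021). Nr4a3 at 6 h turned positive with array weights (0.28), after cyclic loess (0.0093) and with the median shift (0.0037). Without replicate 3 in all groups, an alternative added after seeing the data, the Nr4a1 values were 0.74, 0.64 and 0.51 at 15 min, 1 h and averaged, Nr4a2 was at 1.18 at 1 h and -0.072 at 6 h, and Nr4a3 at 0.19 at 6 h, none past the threshold.

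Leaving out each library gave log2 changes of 0.63 to 0.77 for Nr4a1 at 15 min, 0.55 to 0.70 at 1 h and 0.41 to 0.55 averaged, 0.96 to 1.14 for Nr4a2 at 1 h and -0.12 to 0.19 at 6 h, and -0.24 to 0.38 for Nr4a3 at 6 h and -1.08 to 0.24 for 1 h minus 15 min. For the differences between members it gave -0.55 to 0.089 (Nr4a1 minus Nr4a3) and -0.36 to 0.19 (Nr4a2 minus Nr4a3). At 6 h Nr4a2 turned negative without 6 h replicate 3 (-0.12), and Nr4a3 positive without 6 h replicate 1 (0.13) or saline replicate 3 (0.38). Nr4a3 from 15 min to 1 h turned positive without 15 min replicate 3 (0.24). Nr4a1 minus Nr4a3 turned positive without saline replicate 1 (0.089), and Nr4a2 minus Nr4a3, near 0, without 15 min replicate 3, 1 h replicate 3 and saline replicates 1 and 2 (0.13, 0.08, 0.16 and 0.19).

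Counts of all rows called moved more. At 15 min, 66 became 140 with array weights, 31 after cyclic loess, 114 without the trend, 1 with 2 groups, 38 with the block and 5 to 103 without 1 library. At 1 h, 243 became 1751 with array weights, 136 after cyclic loess, 138 with 2 groups, 159 with the block and 42 to 477 without 1 library. For the average, 125 became 1032 with array weights, 216 with the offset, 33 with 2 groups, 60 with the block and 27 to 152 without 1 library. From 1 h to 6 h, 3 became 16 with array weights, and 0 with 2 groups and with the block, and 0 to 4 without 1 library. From 15 min to 6 h, 2 became 6 without the trend, 0 with 2 groups and with the block, and 0 to 3 without 1 library. Without replicate 3 in all groups each count was 0. The median shift gave 20 higher and 26 lower rows at 15 min and 94 and 107 at 1 h, against 12 and 54, and 36 and 207, on the deposited scale; it moved the median of all rows to 0.04 and 0.03.

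No label pairs same-numbered libraries, so they were not treated as paired. The correlation of their deviations ran from -0.06 to 0.24 (median 0.087, against -0.061 for other pairs). It was above 0.1 in 7 of 15 same-numbered pairs and in 5 of 30 other pairs. As a hint from the data, 8 of 11 libraries correlated best with their own number. With the replicate block Nr4a3 had log2 changes of 1.14 at 15 min (SE 0.21, adjusted p = 0.11) and 0.88 at 1 h (SE 0.19, adjusted p = 0.081). The cause of these shifts was not tested. Unknown depth and 2 to 3 libraries a group limit what can be detected, most of all for Nr4a3.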
